A study of Mus musculus with 6 samples.

Results

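Type 2 conventional dendritic cells were examined among immune cells of mouse tumours, taken from the brain (BrM) or the mammary fat pad (MFP). A breast cancer cell line that forms brain metastases had been injected at one of the sites in female C57BL/6J mice aged 10 to 12 weeks. Viable nucleated CD45+ cells were sorted and profiled as 10x Genomics 3' single-cell libraries, 3 per site. The labels give no further allele or treatment, and they leave unsaid whether replicate libraries are different mice, so p-values measure the spread between these libraries, which may be technical. The tumours came from injected cells, so the brain tumours are not spontaneous metastases. Members were chosen by raw counts of unique molecular identifiers (UMIs, 1 per captured transcript). Each member had at least 1 Flt3 UMI, a sum of at least 2 UMIs over Cd209a, Clec10a and Mgl2, and no Xcr1, Clec9a, Fscn1, Siglech, Cd3e or Cd79a UMI. The sum over C1qa, C1qb and C1qc was at most 5. These rules gave 231 members of 46891 kept cells, 0.493% of them, with 150 in BrM and 81 in MFP. Per library, in the order of replicates 1, 2 and 3 used throughout, there were 29, 78 and 43 members in BrM, against 14, 7 and 60 in MFP.

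Conventional dendritic cells take up antigen in tissue and present it to T cells, and the type 2 subset presents mainly on MHC class II to CD4 T cells. They arise from bone marrow precursors under the cytokine FLT3 ligand, whose receptor is Flt3, and in mice they share surface lectins and CD11b with cells derived from monocytes. For that reason a few lectin genes alone do not separate them fully from monocyte-derived cells.

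The 6 libraries held between 50692794 and 70944735 UMIs. Members had a median of 12190, 9821 and 7160 UMIs in BrM, against 11876.5, 9910 and 14164 in MFP. MFP 2 therefore held 69428 member UMIs in all, where 3 UMIs correspond to 43.2 CPM (UMIs of a gene per 1000000 UMIs summed over the cells), and low values there rest on very few molecules. Libraries BrM 1, MFP 1 and MFP 2 had the 3 lowest totals, and they also differed in composition. Over all kept cells, macrophage markers summed to 337, 17565 and 14869 CPM in BrM, against 245, 110 and 14749 CPM in MFP. T cell markers summed to 3686, 1704 and 1676 CPM in BrM, against 3757, 4338 and 1070 CPM in MFP. Depth and composition of these libraries cannot be told apart. Across libraries 292 barcode strings occurred more than once, and 4 members carried one.

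Marker lists of other cell types were set against the label. Type 1 dendritic markers in the members summed to 236, 549 and 504 CPM in BrM, against 204, 533 and 504 CPM in MFP, with Xcr1 and Clec9a held at 0 by the rule. Monocyte markers summed to 5003, 3026 and 3407 CPM in BrM members, against 2881, 5517 and 2731 CPM in MFP members. Monocytes held between 9925 and 13674 CPM. They were chosen by UMIs of Ly6c2, Lyz2 and Ccr2 and by the lack of Flt3. Ly6c2 and Ccr2 are on the marker list, so the monocyte sum is partly set by that choice. Of the 8 monocyte markers, 6 were above 20 CPM in the members and none was at 0. Macrophage markers summed to 171, 404 and 374 CPM in BrM members, against 446, 864 and 290 CPM in MFP members, with Gpnmb at 0. C1qa, C1qb and C1qc are on this list and were capped by the rule, so the sum is partly set by it. All 5 red blood cell markers were at 0, and so were the B cell markers Pax5 and Ebf1. Whether single members were monocyte-derived was not tested.

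The genes with most UMIs were shared by all libraries. Cd74, the invariant chain that guides MHC class II molecules, was at 18175, 15556 and 12849 CPM in BrM, against 20771.5, 9002 and 19010 CPM in MFP. H2-Aa, a chain of MHC class II itself, was at 9524, 10660 and 9564 CPM in BrM, against 10612, 4407 and 10642.5 CPM in MFP. MFP 2, the library of 7 members, was lowest for both genes. Il1b, which encodes an inflammatory cytokine, was at 2217, 3174 and 2936 CPM in BrM, against 1803, 1815 and 2403 CPM in MFP. The sites overlapped for all 3 genes.

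Transcription factors of dendritic cells differed widely in level. Klf4, a factor needed by part of the type 2 cells, was at 140, 277 and 366 CPM in BrM, against 520.4, 317 and 355 CPM in MFP. Irf4, a factor the type 2 subset depends on, was at 8.42, 17.6 and 24.9 CPM in BrM, against 18.6, 28.8 and 34.6 CPM in MFP. After each cell was thinned to 3000 UMIs, Irf4 was seen in 4.82% of members, inside the range of 3.65% to 7.45% for T cells in the 6 libraries, and in 16.5% before thinning. T cells can express Irf4 themselves, so their share is no measure of free RNA for this gene, and the members were not separated from them by it. Zbtb46, a factor of conventional dendritic cells, was seen in 7.46% of thinned members and in 0.365% to 0.832% of T cells, and in 19.05% of members before thinning. Cd86, a costimulatory ligand, was seen in 51.8% of thinned members and 82.7% of unthinned ones, against 4.04% to 9.65% of thinned T cells. Esam and Clec4a4, which mark a subset of splenic type 2 cells, had no UMI in any thinned member.

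Values at the edge of the rule are descriptions, since the rule set them. Flt3 stood at exactly 1 UMI in 137 of the 231 members. A further 408 cells met every other condition and had no Flt3 UMI. They numbered 32, 112 and 108 in BrM, against 14, 10 and 132 in MFP. Over the 6 libraries the median of Lyz2, the lysozyme gene of monocytes and macrophages, was 2741 CPM in members and 7744 CPM in those Flt3-negative cells. The median of Kit, the stem cell factor receptor, was 52.2 CPM in members and 22.5 CPM in the Flt3-negative cells. The lectin sum was exactly 2 UMIs in 29 members, and 45 cells missed the rule with a sum of 1. The complement condition alone kept out 19 cells. Cd209a was present in 165 members, Clec10a in 161 and Mgl2 in 60, with all 3 in 24 members.

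The share of members among kept cells was 0.366%, 1.01% and 0.525% in BrM, against 0.175%, 0.0825% and 0.906% in MFP. MFP 3 lay above BrM 1 and BrM 3, so the sites overlapped. The mean was 0.635% ± 0.338 in BrM and 0.388% ± 0.451 in MFP (SD, n = 3 each), a difference of 0.247 percentage points (exact two-sided permutation test, p = 0.5). With 3 libraries against 3, the smallest p this test can give is 0.1. Without BrM 2 the difference was 0.0576, and without MFP 3 it was 0.506 percentage points. With cells that are not lymphoid as the total, the shares were 2.50%, 1.65% and 0.852% in BrM. In MFP they were 1.35%, 0.575% and 1.26%, so the order of libraries depended on the total used.

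Conventional dendritic cells were also divided among members, type 1 cells and mature cells, the last chosen by Fscn1, a gene of migrating dendritic cells. Members made up 56.9%, 21.4% and 12.8% of these cells in BrM (29 of 51, 78 of 364 and 43 of 337). In MFP they made up 63.6%, 70.0% and 51.3% (14 of 22, 7 of 10 and 60 of 117). BrM 2 and BrM 3 stood below every MFP library, whereas BrM 1 lay inside the MFP range. The same libraries BrM 2 and BrM 3 held 126 and 177 mature cells and 160 and 117 type 1 cells. Leaving out MFP 2 for its 10 cells, the mean was 30.4% ± 23.4 in BrM (n = 3) and 57.5% ± 8.74 in MFP (n = 2). That difference of -27.1 percentage points did not pass the exact two-sided permutation test (p = 0.3; smallest possible 0.1).

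**Figure D1:**
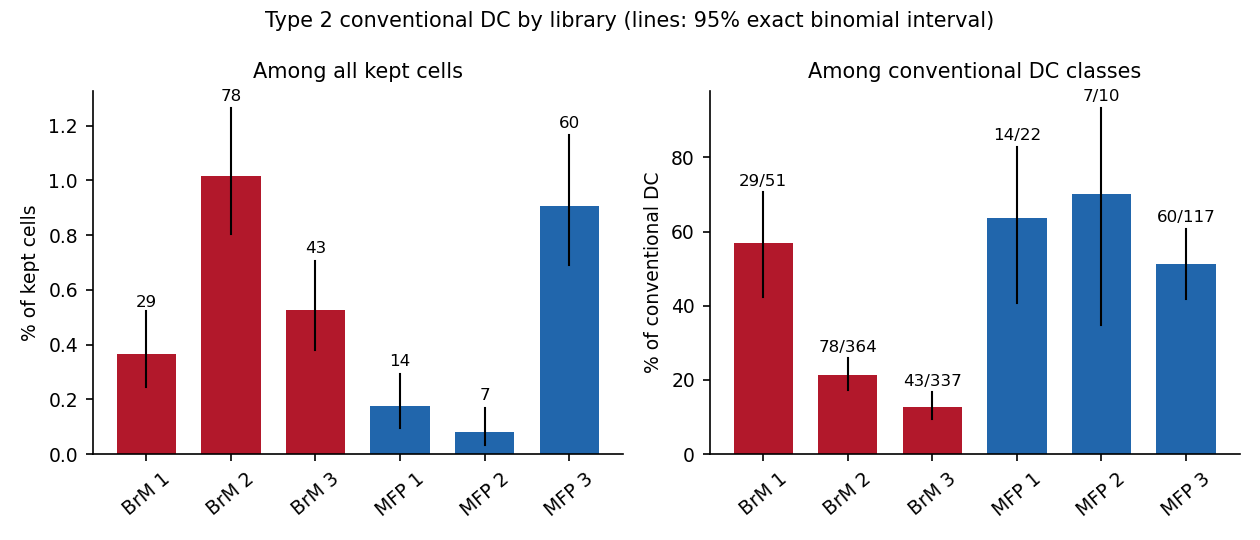
Left, members as a percentage of all kept cells, and right, as a percentage of members, type 1 and mature dendritic cells, in each BrM library (red) and MFP library (blue). Lines are exact 95% binomial intervals, which cover counting error only, and numbers are cell counts. Shares of kept cells overlap between the sites, and BrM 2 and BrM 3 have the 2 lowest shares of conventional dendritic cells, 21.4% and 12.8%.

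The members were not uniform, and Epcam divided them. It encodes a cell adhesion molecule of epithelia that Langerhans cells, the dendritic cells of the epidermis, also carry. It was at 2.81, 361 and 274 CPM in BrM members, against 0, 0 and 86.6 CPM in MFP members. At least 1 Epcam UMI was present in 1 of 29, 43 of 78 and 16 of 43 BrM members. In MFP it was present in 0 of 14, 0 of 7 and 15 of 60 members. The 75 Epcam-bearing cells were thus almost all in BrM 2, BrM 3 and MFP 3, and only 1 came from another library. Those 3 libraries had the higher UMI totals and also the higher macrophage marker sums over all kept cells. Between sites the gene did not pass the test (log2 fold change 1.41, SE 1.18, edgeR adjusted p = 0.999). Over all 6 libraries with the library total as a term, a fit chosen after the data were seen, it rose in BrM (log2 fold change 1.95, SE 0.32, edgeR adjusted p = 0.0256), as did Plet1.

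Free RNA can place UMIs of a tumour gene in immune cells, so the share was set beside that of T cells at equal depth. After thinning to 3000 UMIs, Epcam was seen in 0%, 42.3% and 32.6% of BrM members, against 0%, 0% and 11.9% of MFP members. In thinned T cells the share was 4.03%, 7.70% and 5.12% in BrM, against 3.43%, 3.68% and 8.52% in MFP. In BrM 2 and BrM 3 the members' share was several times that of T cells. In MFP 3, 7 of 59 thinned members held Epcam, a share of 11.9% beside the 8.52% of its T cells. In BrM 1, MFP 1 and MFP 2 the T cell share was above the 0% of members. Whether T cells give the level of free RNA in these members was not tested. The highest cells held 26 Epcam UMIs in BrM 2, 16 in BrM 3 and 17 in MFP 3, and 11 of the 75 cells held a single UMI.

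Epithelial tumour markers (Epcam, Cdh1 and keratins) summed to 47.7, 451 and 368 CPM in BrM members. In MFP members they summed to 18.6, 14.4 and 163 CPM. Cdh1, the gene of E-cadherin, was at 118, 140 and 144 CPM in the Epcam-bearing members of BrM 2, BrM 3 and MFP 3. Keratin genes, which epithelial cells express, were at or near 0 there, and their level in tumour cells was not examined. Krt8, Krt19 and Krt7 were at 0 in the Epcam-bearing members of BrM 2, BrM 3 and MFP 3, and Krt18 was at 0, 5.59 and 3.78 CPM in the same order. Epcam in type 1 cells, mature cells and monocytes was lower than in the members of these libraries. Type 1 cells were at 81.5, 37.7 and 23.6 CPM in BrM 2, BrM 3 and MFP 3, mature cells at 16.2, 11.3 and 8.03 CPM, and monocytes at 10.9, 4.83 and 1.87 CPM. Over all kept cells the level was 86.1, 29.3 and 24.0 CPM. The cells that met every condition but Flt3 were at 394, 134 and 5.63 CPM in the same order. Members were at 361, 274 and 86.6 CPM, so those cells were higher in BrM 2 and lower in BrM 3 and MFP 3. Whether Epcam was particular to the members was not tested, and neither was the part of RNA from tumour cells.

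**Figure D2:**
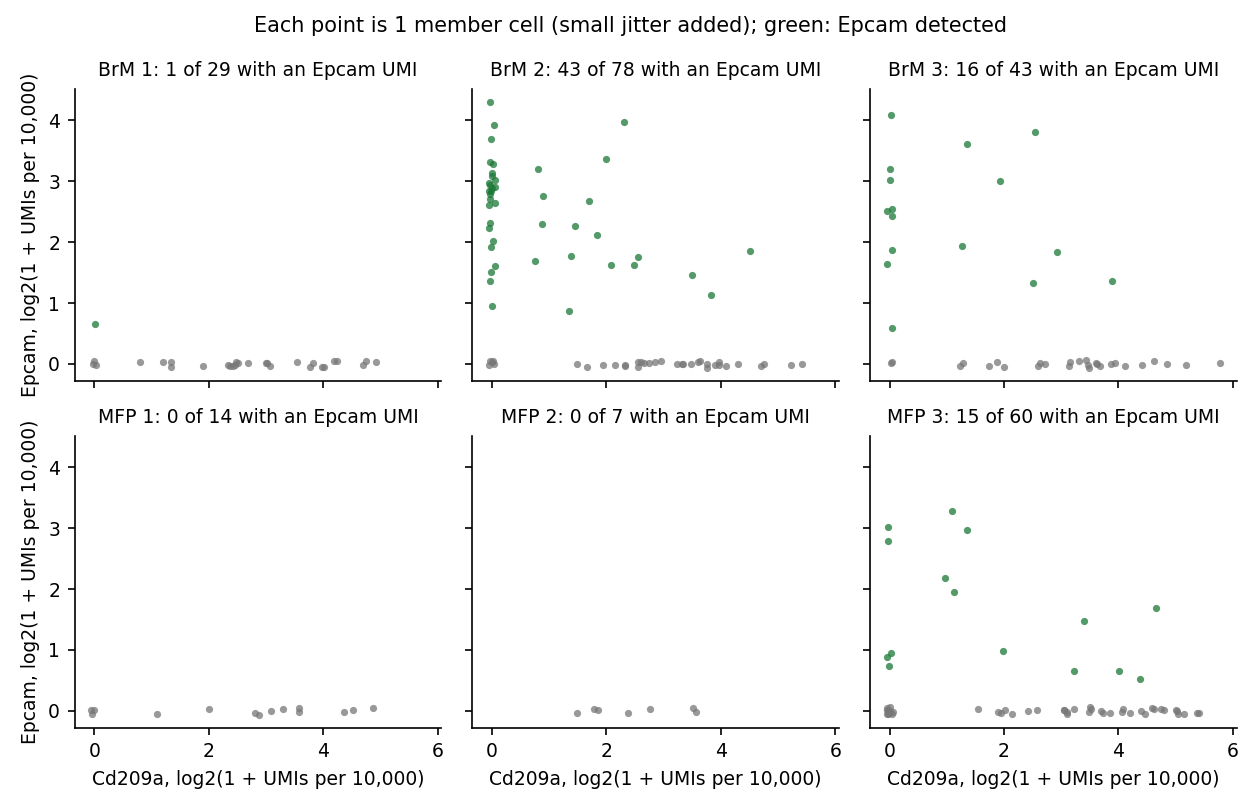
Each point is 1 member in 1 of the 6 libraries, with Cd209a on the x axis and Epcam on the y axis, both as log2(1 + UMIs per 10000), with small jitter. Green points hold at least 1 Epcam UMI and gray points none. Epcam-bearing members fill the panels of BrM 2 (43 of 78), BrM 3 (16 of 43) and MFP 3 (15 of 60), and many of them lack Cd209a.

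The rest of the transcriptome was compared between members with and without Epcam inside BrM 2, BrM 3 and MFP 3, the libraries that held 15 or more of both. The split was chosen after the data were seen, so the values are descriptions with no test. Plet1, a surface protein known from epithelial progenitors, was at 679, 721 and 129 CPM in members with Epcam, against 68.5, 0 and 0 CPM in members without it. Itgae, the CD103 integrin chain that binds E-cadherin, was at 292, 268 and 79.4 CPM with Epcam, against 57.7, 0 and 11.6 CPM without. Cdh1, which encodes E-cadherin itself, was at 118, 140 and 144 CPM with Epcam, against 21.6, 33.0 and 43.2 CPM without. All 3 adhesion genes were higher with Epcam in each of the 3 libraries.

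Other genes with a large excess in Epcam-bearing members, picked by that excess, encode receptors and protease inhibitors. Il1r2, a decoy receptor for interleukin 1, was at 468, 324 and 371 CPM in members with Epcam, against 191, 60.4 and 135 CPM in members without. Cd72, an inhibitory lectin, was at 452, 480 and 287 CPM with Epcam, against 162, 49.4 and 113 CPM without. Havcr2, the checkpoint receptor TIM-3, was at 199, 156 and 147 CPM with Epcam, against 43.3, 43.9 and 48.2 CPM without. Each was higher with Epcam in all 3 libraries, by more than the range of the 3 values without it. Cst3, the protease inhibitor cystatin C that dendritic cells express strongly, was at 10791, 9386 and 6130 CPM with Epcam, against 4368, 3592 and 2758 CPM without. Qpct, Spint1, Dnase1l3, Wdfy4, Cd9, H2-Oa, H2-DMb2 and Cxcl16 were also among the 20 genes with the largest consistent excess. Itgax, which encodes CD11c, was at 203, 223 and 242 CPM with Epcam, against 101, 49.4 and 130 CPM without. Chains of MHC class II itself differed less. H2-Aa was at 11103, 10598 and 10524 CPM with Epcam, against 9835, 8547 and 10695 CPM without, so MFP 3 went the other way. H2-Ab1, another chain, was at 12149, 12336 and 11616.5 CPM with Epcam, against 9377, 8805 and 10593 CPM without. It was higher with Epcam in each library.

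Genes lower in Epcam-bearing members included lectins of the rule. Cd209a, one of the genes of the rule, was at 141, 179 and 514 CPM in members with Epcam, against 876, 1137 and 1250 CPM in members without. A Cd209a UMI was present in 34 of 75 members with Epcam (45.3%) and in 131 of 156 without (84.0%). By library the Cd209a share was 39.5%, 43.8% and 66.7% with Epcam, against 85.7%, 92.6% and 73.3% without, in BrM 2, BrM 3 and MFP 3, so the gap in MFP 3 was small. A Plet1 UMI was present in 35 of 75 members with Epcam (46.7%) and in 3 of 156 without (1.92%). Mgl2, which encodes another of the rule's lectins, was at 137, 251 and 287 CPM with Epcam, against 133, 38.5 and 151 CPM without. Clec10a, the remaining lectin of the rule, was at 215, 212 and 571 CPM with Epcam, against 292, 637 and 760 CPM without. Each member needed at least 2 UMIs over these lectins, so a cell without Cd209a had to hold the others. Their opposite directions are therefore partly set by the rule.

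Lyz2 was at 174, 1330 and 170 CPM in members with Epcam, against 4310, 1615 and 1292 CPM in members without. Ccr2, the receptor through which monocytes enter tissue, was at 69.6, 145 and 295 CPM with Epcam, against 382, 434 and 446 CPM without. Ly6c2, a surface protein of inflammatory monocytes, was at 59.9, 101 and 94.5 CPM with Epcam, against 249, 258 and 233 CPM without. The 3 genes were lower with Epcam in each of the 3 libraries. In BrM 3, 1 cell with a single Epcam UMI held 193 Lyz2 UMIs, and the other 15 Epcam-bearing cells held 0 to 16 each. Fn1, Emilin2, Ccl9, Itgam and Cd14 lay on the same side, but not all monocyte-shared genes did. Csf1r, the receptor for the macrophage growth factor M-CSF, was at 75.4, 67.0 and 64.3 CPM with Epcam, against 93.8, 43.9 and 53.2 CPM without. Cd74 was at 15942, 13224 and 17637 CPM with Epcam, against 14838, 12480 and 19614 CPM without. For Csf1r and Cd74 the direction was not the same in all 3 libraries.

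Depth and cell cycle moved with this division. Median UMIs were 11894, 11056.5 and 16640 in members with Epcam, against 7659, 6525 and 13265 in members without, in BrM 2, BrM 3 and MFP 3. Of the members with Epcam, 8 of 43, 4 of 16 and 6 of 15 held at least 2 UMIs of 6 cell-cycle genes, against 0 of 35, 3 of 27 and 8 of 45 without. Among the 75 members with Epcam, 3 lay in the 7% of cells with the highest doublet scores of their library. The part of depth in the division was not tested.

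**Figure D3:**
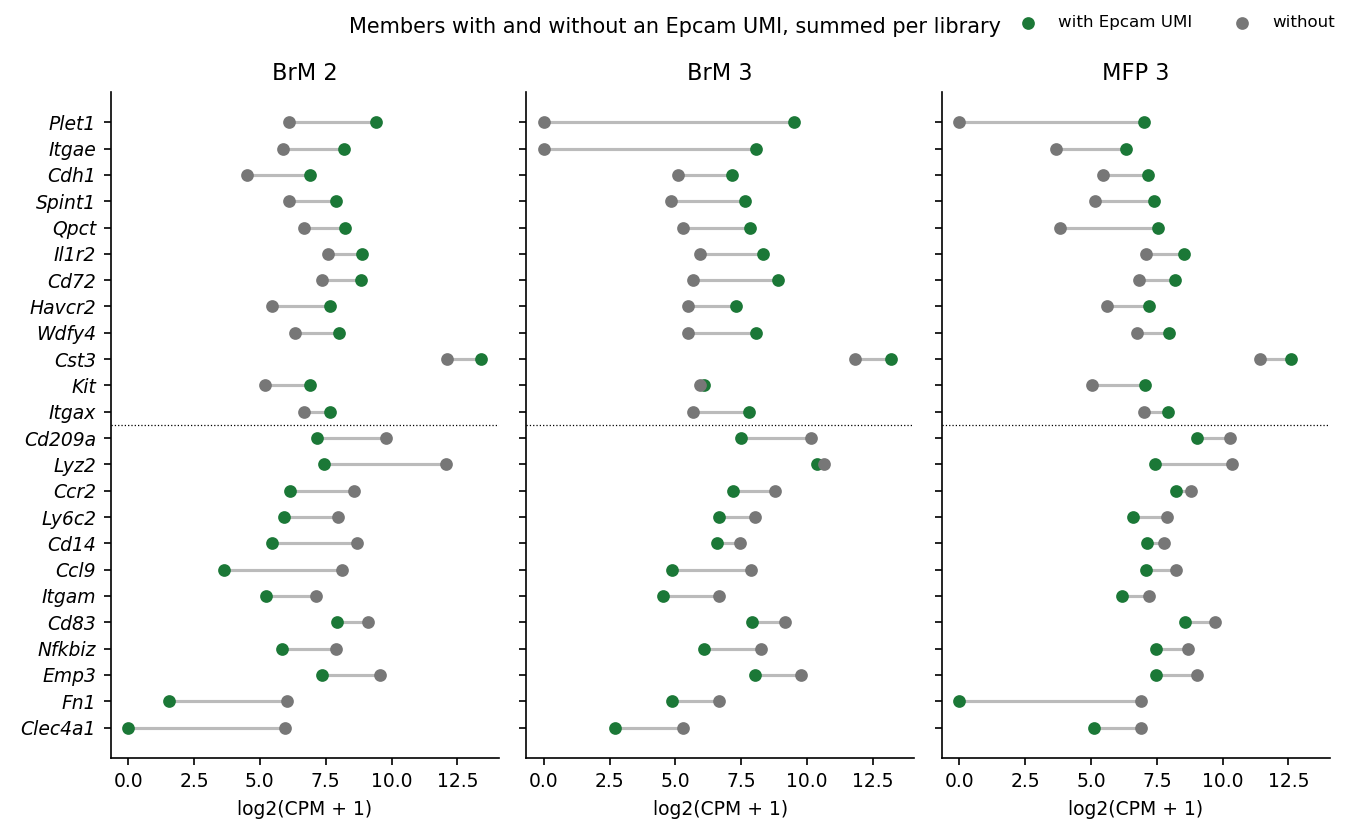
Level of 24 genes, as log2(CPM + 1) of summed UMIs, in members with an Epcam UMI (green) and without (gray), for BrM 2, BrM 3 and MFP 3. Above the dotted line the green points lie to the right of the gray points, with Kit in BrM 3 close to equal, and below it they lie to the left. Plet1 has the widest gap above the line in each panel, and Itgae has the next widest in BrM 3.

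Gene expression in BrM members was then compared with that in MFP members, which addresses whether the tumour site marks these cells. Only libraries with at least 20 members entered the main test, so BrM 1, BrM 2 and BrM 3 were set against MFP 3 alone, and the spread of the lone MFP library was taken to be that of the others, with 2 residual degrees of freedom. Of 6329 genes tested, 4 were called by edgeR's quasi-likelihood test at an adjusted p of 0.05, or 0.0632%. All 4 fell in BrM and none rose, and 299 genes had an unadjusted p under 0.05. DESeq2 called 3. On counts simulated for this comparison the test recovered 41.8% of genes changed 4-fold and 5.97% of those changed 2-fold, so small differences were mostly out of reach.

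The 4 called genes were Retnla, Ly6d, S100a8 and S100a9, and single cells of MFP 3 carried them. Retnla, a secreted protein of alternatively activated myeloid cells (chromosome 16, 48842551 to 48844461, mm10), was at 0, 0 and 0 CPM in BrM, against 0, 0 and 149 CPM in MFP. It was at least 75.1-fold lower in BrM than in MFP 3, taking 3 UMIs over the BrM libraries as the limit (edgeR adjusted p = 0.0128). Of its 129 UMIs in MFP 3, 118 came from 1 cell with 21935 UMIs. Ly6d, a surface protein of lymphoid and epithelial cells, was likewise at 0 in BrM, against 0, 0 and 79.7 CPM in MFP, at least 40.2-fold lower in BrM than in MFP 3 (edgeR adjusted p = 0.0322), and 66 of its 69 UMIs lay in 1 cell.

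S100a8 and S100a9 encode the calcium-binding pair that fills the cytosol of neutrophils. S100a9 was at 0, 6.29 and 5.54 CPM in BrM, against 0, 0 and 104 CPM in MFP (log2 fold change -4.37, SE 0.53, edgeR adjusted p = 0.0322). S100a8 was at 0, 1.26 and 5.54 CPM in BrM, against 0, 0 and 73.9 CPM in MFP (log2 fold change -4.99, SE 0.65, edgeR adjusted p = 0.0369). A single cell held 73 of the 90 S100a9 UMIs and 45 of the 64 S100a8 UMIs of MFP 3. Neutrophil markers summed to 16.8, 13.8 and 19.4 CPM in BrM members, against 18.6, 14.4 and 188 CPM in MFP members, while Ly6g and Camp, which define the lineage, were at 0. Over all kept cells the same markers summed to 2.66, 473 and 389 CPM in BrM, against 2.22, 1.32 and 2256 CPM in MFP. MFP 1 and MFP 2 had none of the 4 genes. With the 3 cells removed, an alternative chosen after the data were seen, no gene of 6294 passed in edgeR, and 287 had an unadjusted p under 0.05.

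**Figure D4:**
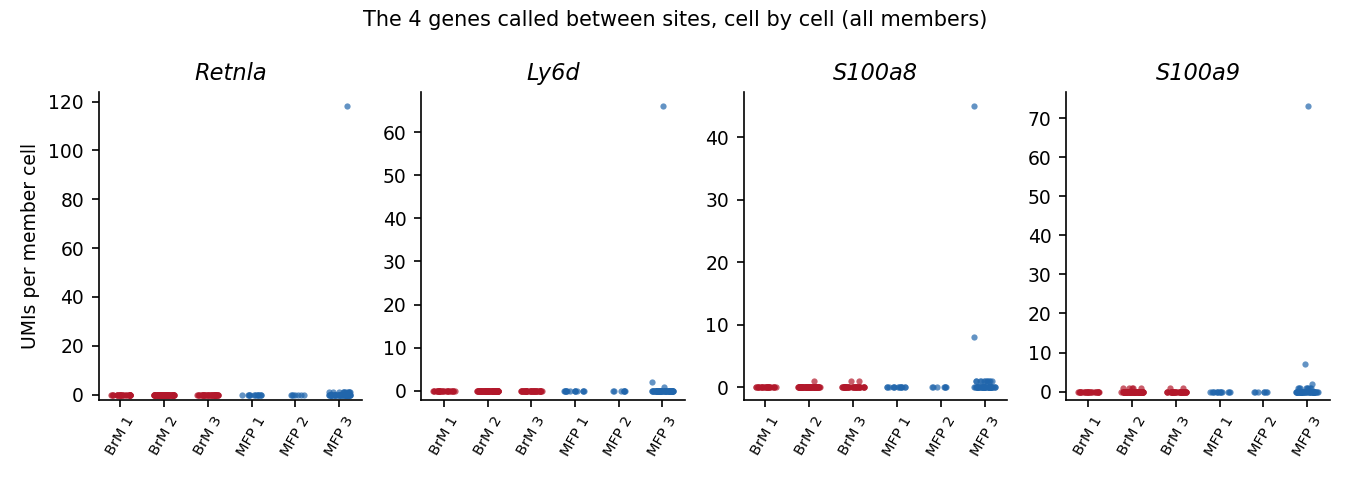
UMIs of the 4 called genes in every member, 1 point per cell, by BrM library (red) and MFP library (blue). For each gene 1 cell of MFP 3 stands far above the rest, at 118, 66, 45 and 73 UMIs for Retnla, Ly6d, S100a8 and S100a9.

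No other gene passed, so the remaining genes are given by their levels in all 6 libraries, with the test of the 4 libraries beside them. Over the 6329 genes, the 3 BrM libraries lay above the 3 MFP libraries for 323 genes (5.1%) and below them for 412 (6.51%). Immediate-early genes, which cells switch on within minutes of a stimulus or of tissue dissociation, stood below for 7 of 24 tested. Their median log2 fold change was -0.20, against 0.02 over all genes, with 19 negative, and none was called. Egr1, a zinc-finger factor of this response, was at 44.9, 39.0 and 85.9 CPM in BrM, against 155, 158 and 244 CPM in MFP (log2 fold change -2.07, SE 0.39, edgeR adjusted p = 0.413). Klf2, a factor that restrains inflammatory activation, was at 42.1, 40.3 and 52.6 CPM in BrM, against 304, 86.4 and 144 CPM in MFP (log2 fold change -1.62, SE 0.32, edgeR adjusted p = 0.494). For both genes the highest BrM library stood below the lowest MFP library.

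Nr4a1, a nuclear receptor induced by stimulation, was at 331, 254 and 194 CPM in BrM, against 533, 648 and 601 CPM in MFP (log2 fold change -1.13, SE 0.31, edgeR adjusted p = 0.833). Dusp1, a phosphatase that switches off MAP kinases, was at 407, 295 and 399 CPM in BrM, against 774, 677 and 698 CPM in MFP (log2 fold change -0.85, SE 0.27, edgeR adjusted p = 0.999). The gap between the sites exceeded the range within either site for Dusp1 and Nr4a1. Egr3, Dusp2 and Zfp36 were the other members of the 7. Egr1 showed the same order in monocytes, at 66.2, 51.5 and 69.0 CPM in BrM, against 146, 132 and 186 CPM in MFP, and so did Dusp1, at 653, 621 and 642 CPM in BrM, against 1017, 1204 and 1258 CPM in MFP. Dissociation was the same for all libraries per the labels, and its part in these levels was not tested.

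Of the 7 separating genes 5 were searched, as Egr1 was left out by choice and Egr3 had no RefSeq window. The promoters of Nr4a1 and Dusp1 are shown because both separated the sites and, of the 5, had the most matches to the element below. Both are known targets of CREB, a factor that binds the cAMP response element TGACGTCA. The 250 bases before the RefSeq start (GRCm38.p6) were searched on both strands for TGACGTCA and for its part TGACG, and capitals mark the matches. Nr4a1 lies on the plus strand (chr15:101266596-101266845) and has 4 matches to TGACG, all read here as the reverse strand form CGTCA. Dusp1 lies on the minus strand (chr17:26508473-26508722) and has 1 full element, which counts as 2 of its 3 matches to TGACG because the 2 strands overlap there.
Nr4a1: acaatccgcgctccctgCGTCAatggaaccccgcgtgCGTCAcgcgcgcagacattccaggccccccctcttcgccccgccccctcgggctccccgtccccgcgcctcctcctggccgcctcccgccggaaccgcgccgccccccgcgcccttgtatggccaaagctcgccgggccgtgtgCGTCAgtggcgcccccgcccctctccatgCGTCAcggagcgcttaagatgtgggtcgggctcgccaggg
Dusp1: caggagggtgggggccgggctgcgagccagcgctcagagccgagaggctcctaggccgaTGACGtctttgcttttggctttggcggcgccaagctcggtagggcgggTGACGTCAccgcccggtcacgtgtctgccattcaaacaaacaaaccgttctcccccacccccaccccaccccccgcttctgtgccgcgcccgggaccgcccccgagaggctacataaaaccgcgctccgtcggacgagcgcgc
Among 32851 RefSeq windows of the same length, 1.55% held TGACGTCA and 17.8% held TGACG on either strand. Of the other 3 searched, Klf2 had 1 match to TGACG, Dusp2 and Zfp36 had 0, and none held TGACGTCA. The CArG box, a run of A and T bases between CC and GG, was also searched. Zfp36 had 1 match and the rest had 0, and 1.47% of windows held one. A match is a description of these letters and was not tied to the levels.

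Genes of NF-kB feedback, which inflammatory signals induce, stood below in BrM for 5 of 20 tested (6.51% over all genes). They stood above for 1 (5.1% over all genes). The 5 were Nfkbiz, Nfkbid, Tnfaip3, Rela and Ptgs2, and the gene above was Plaur, the urokinase receptor. Nfkbid, an inhibitor of this family, was at 89.8, 65.4 and 83.1 CPM in BrM, against 155, 101 and 177 CPM in MFP (log2 fold change -1.09, SE 0.31, edgeR adjusted p = 0.93). The list's median log2 fold change was -0.17 and none of its genes was called.

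C-type lectins and Fc receptors had a median log2 fold change of -0.41, with 13 of 19 tested negative, none called, 3 below in BrM and 1 above. Over all 6329 genes, 6.51% stood below and 5.1% above in BrM, and 3047 were negative. The 3 lectins below were neighbours of 1 inhibitory lectin family. Clec4a1 was at 70.2, 21.4 and 22.2 CPM in BrM, against 161, 173 and 93.5 CPM in MFP. Clec4a2 was at 28.1, 25.2 and 27.7 CPM in BrM, against 55.8, 115 and 72.8 CPM in MFP. Clec4a3 was at 70.2, 18.9 and 38.8 CPM in BrM, against 173, 259 and 122 CPM in MFP. The genes of this family resemble each other in sequence, and how shared reads were assigned was not examined. Tnfsf9, the costimulatory ligand 4-1BBL, was at 135, 133 and 136 CPM in BrM, against 403, 230 and 336 CPM in MFP (log2 fold change -1.24, SE 0.27, edgeR adjusted p = 0.494). Its 3 BrM values were almost equal and all below MFP 2.

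Other single genes below in BrM had roles in recruitment and signalling. Ccl2, a chemokine that draws monocytes, was at 28.1, 18.9 and 36.01 CPM in BrM, against 43.4, 144 and 91.2 CPM in MFP (log2 fold change -1.71, SE 0.39, edgeR adjusted p = 0.494). Sirpa, the receptor for CD47 that is often used to identify type 2 cells, was at 70.2, 86.8 and 99.7 CPM in BrM, against 155, 158 and 135 CPM in MFP. Il1rn, the interleukin 1 receptor antagonist, was at 30.9, 28.9 and 52.6 CPM in BrM, against 99.1, 187 and 68.1 CPM in MFP. For each of the 3 the sites did not overlap, and none was called. Fgfr1, Mylip and Tnf had the same order.

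Genes above in BrM included receptors of the dendritic and lymphoid cytokine families. Csf2rb, the common receptor chain for GM-CSF, was at 323, 536 and 396 CPM in BrM, against 248, 187 and 248 CPM in MFP (log2 fold change 0.84, SE 0.34, edgeR adjusted p = 0.999). Cd86 was at 303, 390 and 377 CPM in BrM, against 285, 86.4 and 199.8 CPM in MFP. Il7r, which pairs with Crlf2 to form the receptor for TSLP, was at 44.9, 46.6 and 41.5 CPM in BrM, against 6.19, 0 and 20.8 CPM in MFP. The sites did not overlap for these 3 genes or for Crlf2, Btla, Relb and Fth1, and none was called.

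Pxdc1 was at 67.3, 80.6 and 58.2 CPM in BrM, against 0, 0 and 17.3 CPM in MFP (log2 fold change 2.08, SE 0.43, edgeR adjusted p = 0.494). Serpinb9, an inhibitor of granzyme B, was at 53.3, 62.9 and 85.9 CPM in BrM, against 43.4, 14.4 and 15.01 CPM in MFP (log2 fold change 2.22, SE 0.47, edgeR adjusted p = 0.494). Crem, a cAMP-responsive repressor, was at 292, 305 and 346 CPM in BrM, against 260, 130 and 167 CPM in MFP (log2 fold change 0.99, SE 0.29, edgeR adjusted p = 0.987). All 3 were above in every BrM library, and none passed the test.

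Several lists leaned one way in the 4-library test while nearly all of their genes overlapped between the sites over 6 libraries. Over all 6329 genes, 3282 were positive and 3047 negative, and 5.1% stood above and 6.51% below in BrM. Cholesterol synthesis and uptake genes had a median log2 fold change of 0.86, with 14 of 15 positive and none called. Fdps, an enzyme of that pathway, was at 210, 161 and 266 CPM in BrM, against 167, 418 and 58.9 CPM in MFP. None of the 15 separated the sites over 6 libraries. Interferon-gamma response genes had a median of 0.68, with 17 of 19 positive, none called and 1, Iigp1, above in BrM. Cxcl9, a T cell chemokine of that response, was at 1715, 239 and 692 CPM in BrM, against 297, 821 and 315 CPM in MFP, and BrM 1 alone lay above the MFP range. Proliferation genes had a median of -0.69, with 20 of 24 negative, none called and none separating the sites.

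Some genes were detected mainly in BrM 2 and BrM 3. Ccl17, a chemokine that attracts CCR4+ T cells, was at 0, 181 and 158 CPM in BrM, against 0, 0 and 12.7 CPM in MFP. After thinning, a Ccl17 UMI was present in 0%, 14.1% and 18.6% of BrM members, against 0%, 0% and 3.39% of MFP members, and in at most 0.261% of T cells. Unthinned, it was present in 12.6% of all members. BrM 1 was at 0 and overlapped the MFP libraries. Axl, a receptor for apoptotic cells, was at 8.42, 57.9 and 52.6 CPM in BrM, against 6.19, 0 and 10.4 CPM in MFP, with BrM 1 again below MFP 3.

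Lists with little difference included MHC class II presentation, where the median log2 fold change was -0.02 and 5 of 13 genes were positive. MHC class I and immunoproteasome genes had a median of 0.09 over 16, oxidative phosphorylation genes 0.02 over 30, and hypoxia and glycolysis genes 0.09 over 20. None of these genes was called. Cell-cycle UMIs of 2 or more were found, after thinning, in 3.57%, 3.85% and 9.30% of BrM members and in 8.47% of members of MFP 3. The difference of -2.90 percentage points did not pass the exact two-sided permutation test over 4 libraries (p = 1; smallest possible 0.25). Before thinning the shares were 10.3%, 10.3% and 16.3% in BrM, against 7.14%, 0% and 23.3% in MFP.

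Since Epcam-bearing members were unevenly spread, the comparison was repeated in the members without an Epcam UMI, as an alternative chosen after the data were seen. They numbered 28, 35 and 27 in BrM, against 14, 7 and 45 in MFP, and the test again set 3 BrM libraries against MFP 3. Of 4710 genes, edgeR called 27 (0.573%), of which 5 rose in BrM (0.106%) and 22 fell (0.467%). Egr1 fell to 47.1, 32.5 and 65.9 CPM in BrM, against 155, 158 and 276 CPM in MFP, a log2 fold change of -2.50 with an SE of 0.35 (edgeR adjusted p = 0.000295). Fosb, a partner of JUN in AP-1, fell to 124, 173 and 154 CPM in BrM, against 508, 259 and 464 CPM in MFP (log2 fold change -1.58, SE 0.28, edgeR adjusted p = 0.00489). Nr4a1 fell to 339, 299 and 275 CPM in BrM, against 533, 648 and 692 CPM in MFP (log2 fold change -1.12, SE 0.25, edgeR adjusted p = 0.0397). For these 3 genes no BrM library reached an MFP library, including MFP 1 and MFP 2, which the test did not use. In this set 6 of 24 immediate-early genes stood below in BrM (5.65% over all genes there) and none above (6.05%), and their median was -0.12, against 0.02 over all genes. Of the NF-kB feedback genes, 19 were tested there, and 1 stood below in BrM, Nfkbiz, and 2 above, with a median log2 fold change of 0.01.

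The other calls in members without Epcam differed in how MFP 1 and MFP 2 stood. Retnla and Ly6d were again among them, at 0 in every library but MFP 3, where they were at 208 and 115 CPM. The single cells that held 118 Retnla UMIs and 66 Ly6d UMIs had no Epcam UMI and stayed in this set. The cell-cycle genes Top2a, Pclaf, Stmn1, Hist1h1b, Smc2 and Ube2c fell, and their BrM values overlapped MFP 2, which was at 0 for each of them except Stmn1. Fdps, Cyp51 and Idi1 of cholesterol synthesis rose against MFP 3, with Fdps at 218, 234 and 417 CPM in BrM, against 167, 418 and 59.9 CPM in MFP, so the sites overlapped. Clec4b1, another lectin, fell to 103, 83.0 and 49.4 CPM in BrM, against 173, 101 and 249 CPM in MFP, and BrM 1 just exceeded MFP 2. Of the genes named before, Klf2 was at 44.2, 93.8 and 87.9 CPM in BrM, against 304, 86.4 and 168 CPM in MFP, and the sites then overlapped. So did Ccl2, at 29.5, 25.2 and 60.4 CPM in BrM, against 43.4, 144 and 74.8 CPM in MFP. Clec4a2, Egr3, Dusp2, Nfkbid, Tnfaip3, Rela, Ptgs2, Relb and Btla overlapped as well. Tnfsf9 overlapped, at 141, 263 and 253 CPM in BrM, against 403, 230 and 386 CPM in MFP. The same held for Il7r, Cd86, Crem, Serpinb9 and Pxdc1. Among the last 5 the log2 fold change without Epcam-bearing members was 0.17 for Il7r (SE 0.81), 0.69 for Cd86 (SE 0.30), 0.89 for Crem (SE 0.30), 1.17 for Serpinb9 (SE 0.77) and 3.05 for Pxdc1 (SE 0.82), and none passed. Clec4a1, Clec4a3, Sirpa, Csf2rb and Dusp1 kept the sites apart without passing the test, as did Zfp36, Il1rn, Tnf, Fgfr1, Mylip, Crlf2, Fth1 and Plaur.

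**Figure D5:**
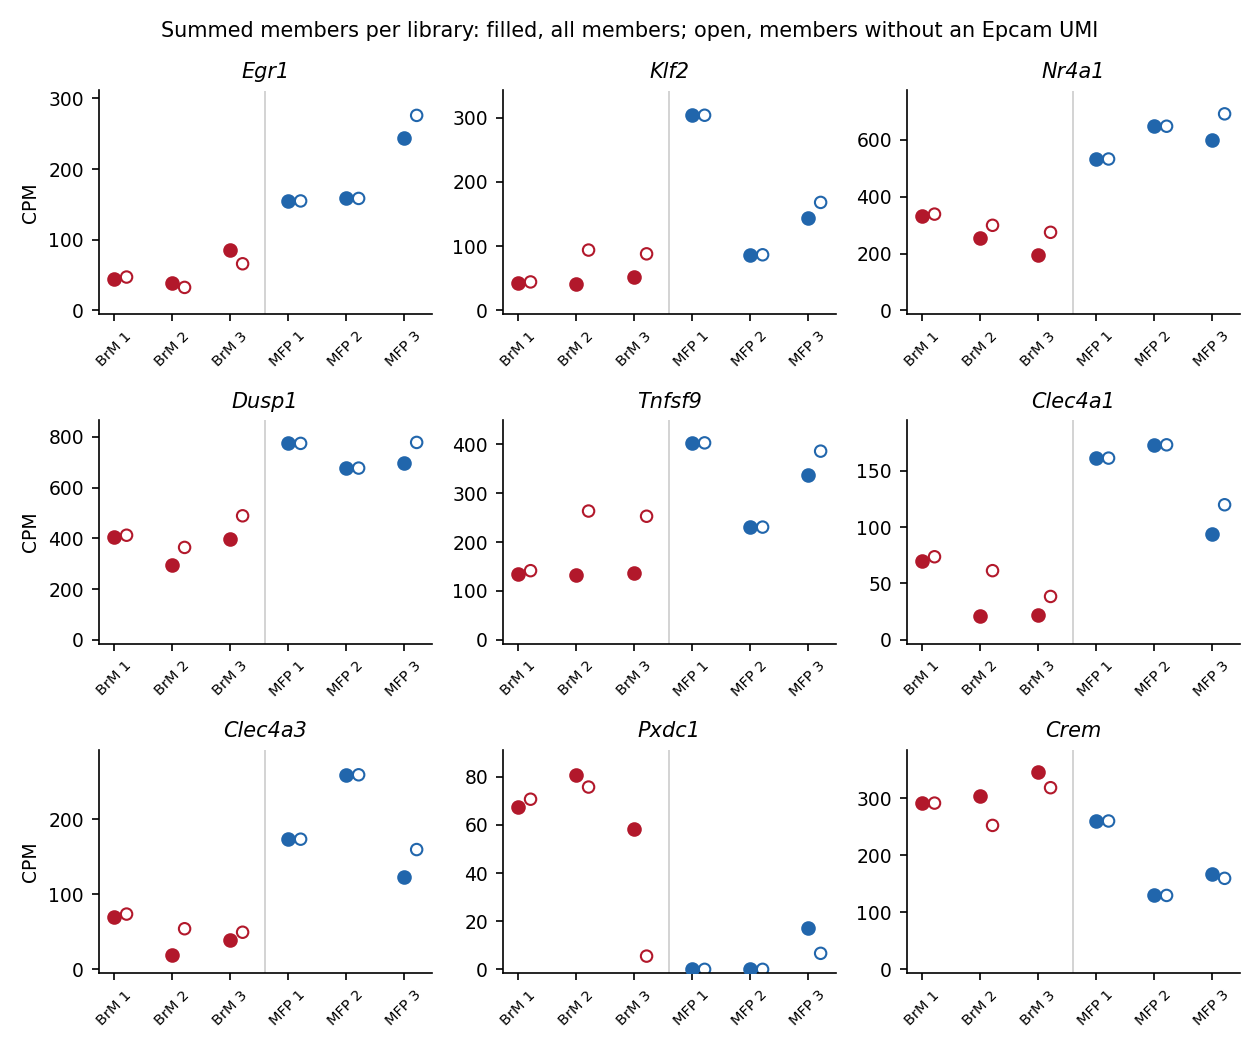
Summed level in CPM of 9 genes in each BrM library (red) and MFP library (blue), for all members (filled) and for members without an Epcam UMI (open). Egr1, Nr4a1, Dusp1, Clec4a1 and Clec4a3 lie lower in BrM in both sets, whereas open points of Klf2, Tnfsf9, Pxdc1 and Crem overlap between the sites.

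Monocytes of the same libraries gave a test of whether the site difference was particular to the members. With the library as a block, edgeR called 0 of 7943 genes for a difference in the site effect between members and monocytes. At an unadjusted p under 0.05 there were 304 genes, and DESeq2 also called 0. On simulated counts this test recovered 17.9% of genes whose difference was 4-fold, so most differences of that size would be missed. Ccl2 had an interaction of -1.77 on the log2 scale (SE 0.35, edgeR adjusted p = 0.292). In monocytes Ccl2 was at 1160, 532 and 740 CPM in BrM, against 429, 225 and 753 CPM in MFP. Tnfsf9 in monocytes was at 66.2, 55.5 and 76.6 CPM in BrM, against 46.6, 57.6 and 87.9 CPM in MFP, and its interaction of -0.87 (SE 0.33) had an adjusted p of 1 in edgeR. Thus Egr1 and Dusp1 stood lower in BrM in both cell classes, whereas the monocyte values of Tnfsf9 and Ccl2 overlapped between the sites.

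The count of called genes depended on single libraries. Without BrM 1 it was 247, without BrM 2 it was 0 and without BrM 3 it was 4. Over all 6 libraries, an alternative chosen after the data were seen, no gene of 4186 passed in edgeR and 281 had an unadjusted p under 0.05. In DESeq2 the genes called were Egr1, Klf2 and Clec4a3, all lower in BrM, with adjusted p of 0.0491, 0.0426 and 0.0426.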

How the data were processed

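Single-cell libraries of CD45+ cells were compared between BrM and MFP tumours, 3 libraries each, grouped by the sample titles. The authors deposited raw UMI counts per gene and barcode with no normalization, made with Cell Ranger 4.0 on mm10 per the submitters' processing notes. Its annotation is not given in the sources used here. Of 49518 barcodes, 2627 were removed for having fewer than 500 UMIs, fewer than 200 genes or more than 10% of UMIs from mitochondrial genes. The deposited counts were summed over the members of each library with Python 3.11.15 and tested with edgeR 4.0.16 (quasi-likelihood, TMM, filterByExpr) in R 4.3.3, with DESeq2 1.42.0 as an alternative. The 13 genes of the selection rule were left out of the tests. P-values were adjusted over all genes tested by the Benjamini-Hochberg method at 0.05. Log2 fold changes are BrM over MFP, and CPM are UMIs per 1000000 UMIs of the summed cells.

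The members and the gene lists were chosen with earlier results of these data known. Named genes were those with the lowest p or largest change in each direction, up to 4 of each list by size of change, and a fixed set of dendritic cell genes. The list members whose libraries did not overlap, the genes compared by Epcam and the calls without Epcam were added after their values were seen. Doublet scores came from Scrublet in scanpy 1.11.5. Its own threshold marked under 0.5% of cells in 4 libraries and was not used, so members stayed in and the 7% of highest scores were left out as an alternative. Shares of cells with a UMI were compared after thinning each cell to 3000 UMIs, which left out 3 members. Intervals cover counting error only. Promoters came from RefSeq tables on GRCm38.p6, where 21 of the 24 immediate-early genes matched. Both tests were checked on simulated counts. Other settings are listed with the dependence on processing.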

Additional observations from a re-analysis of the deposited data

How the results depend on the processing

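The 4 called genes between sites became 46 with no filter on low counts, 244 with library total as a term and 247 with only the libraries of higher UMI total, which are BrM 2, BrM 3 and MFP 3. The count was 2 without top doublet scores (Retnla and Ly6d), 1 without cells holding cell-cycle UMIs (Egr1) and 0 with a minimum of 10 member cells. Leaving out 1 BrM library gave 0 to 247. Among alternatives chosen after seeing the data, all 6 libraries gave 0, the same with a replicate block 0 and with library total as a term 10 (7 lower in BrM, among them Egr1, Klf2, Nr4a1 and Tnfsf9, and 3 higher, Epcam, Plet1 and Pxdc1). The set without Epcam UMIs gave 27, removal of 3 cells gave 0, and leaving out 1 of the 6 libraries gave 0 to 16, with 16 without BrM 1 and 1 without MFP 3. The difference from monocytes gave 0 genes, against 24 with no filter and 0 to 42 with 1 BrM library left out (42 without BrM 1, 10 without BrM 3). The cause of these moves was not tested.

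For 29 named genes under 19 settings no direction reversed: of 518 values, 404 kept their side of the threshold, 106 passed it only under the alternative and 8 lost it. The settings were not independent. Leaving out BrM 1 and keeping only the libraries of higher UMI total were the same fit. The term for library total set BrM 1 apart from the others, so it was close to that fit as well. Many of these genes were named for their change or separation in these libraries. The lack of reversals was therefore largely set by that choice. The share among kept cells had the same direction in all settings. It ran from 0.0576 to 0.506 percentage points, and was 0.605 with cells that are not lymphoid as the total. The share among conventional dendritic cells also kept its direction, from -40.4 to -17.9, as did the cell-cycle share, from -11.0 to -1.90. With a replicate block the 2 shares differed by 0.247 (exact permutation p = 0.75) and by -22.6 points (exact permutation p = 0.5). Equal replicate numbers were not taken as pairs, since their correlations of deviations were 0.055, -0.156 and 0.103. No paired analysis was possible for the 4-library test and the cell-cycle share because only number 3 is shared.

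The 4-library test has no value without MFP 3, with complement genes at 0, with Ly6c2 and Fcgr1 at 0, with only the libraries of lower total, or with a minimum of 50 cells, for lack of libraries. Depth limits MFP 1 and MFP 2 most, with 14 and 7 members.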
